A study of Mus musculus with 10 samples.

Results

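Semaphorins, plexins, neuropilins, ephrins and Eph receptors are the large families of contact and short-range signals that steer axons in the embryo and adjust synapses in the adult brain. Semaphorins signal through plexins, and the secreted class 3 semaphorins mostly need a neuropilin as the part of the receptor that binds them. Ephrins are held on the cell surface, by a lipid anchor in the A class and by a transmembrane segment in the B class, and bind Eph receptor tyrosine kinases on the neighbouring cell, so that signals pass in both directions. In the hippocampus these genes are known for placing mossy fibres, for shaping dendritic spines and for synaptic plasticity. Their members were set by gene symbol and a filter on level, with earlier results of these data known. Of the 31510 genes of the deposited table, 53 carry a symbol of semaphorin classes 3 to 7, a plexin, neuropilin 1 or 2, an Eph receptor or an ephrin. Of these, 52 reached a normalised count of 10 in 5 or more of the 10 libraries. These 52 are among the 17556 genes tested. The receptor gene Epha1 was left out, with values of 3.98 to 15.6 and 4 libraries at or above 10, and the lowest member kept was the ephrin gene Efna4, with values of 7.38 to 22.1 and 9 such libraries.

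The samples were hippocampi of male APP/PS1 mice (34832-JAX), a strain with APP and presenilin transgenes behind the mouse prion promoter that forms amyloid deposits. At 8 months of age 5 mice were given AAV8-GFP and 5 were given AAV8-Irisin-FLAG by tail vein, and tissue was taken 2 months later. These are called GFP mice and irisin mice from here on. AAV8 is a vector that favours the liver, and irisin is cleaved from Fndc5 and best known as a hormone of exercising muscle. Both groups carried the transgenes and a vector, and mice without either were not analysed here. The comparison asks whether irisin raised in the circulation goes with another level of these guidance genes in an amyloid-bearing hippocampus. Normalised counts summed to 35300000 to 36600000 per library, with 22434 to 23035 genes above 0. Of the hippocampal markers, all 8 dentate granule, 6 CA1 and 9 CA2 and CA3 pyramidal genes listed were above the filter. In bulk tissue, fewer cells of a type and less RNA per cell cannot be told apart.

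No member of these families passed the test between irisin mice and GFP mice. The largest difference was that of Sema3f, a class 3 semaphorin, with means of 97.1 and 138 normalised counts. It was followed by order of p by Sema6c, Sema4c and Ephb6, with log2 differences (irisin minus GFP mice) of −0.13, 0.16 and −0.060. By limma on log2(normalised count + 1), 0 of 52 members had an adjusted p under 0.05 (background 0% of all tested genes), and the smallest adjusted p over the members was 0.942. At an unadjusted p under 0.05 there was 1 member, Sema3f, or 1.92% of the members, against 4.49% of all tested genes (2.28% higher and 2.21% lower in irisin mice). In 0 members did the groups not overlap, against 0.803% of all tested genes. The log2 difference (irisin minus GFP mice) was above 0 for 31 members and below 0 for 21, and 50.5% of all tested genes lay above 0. Its median was 0.021 over the members and 0.00099 over all tested genes. Single mice moved the median over the members, to 0.0080 without irisin mouse 4, 0.014 without GFP mouse 1, 0.031 without irisin mouse 3 and 0.033 without GFP mouse 4.

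**Figure D1:**
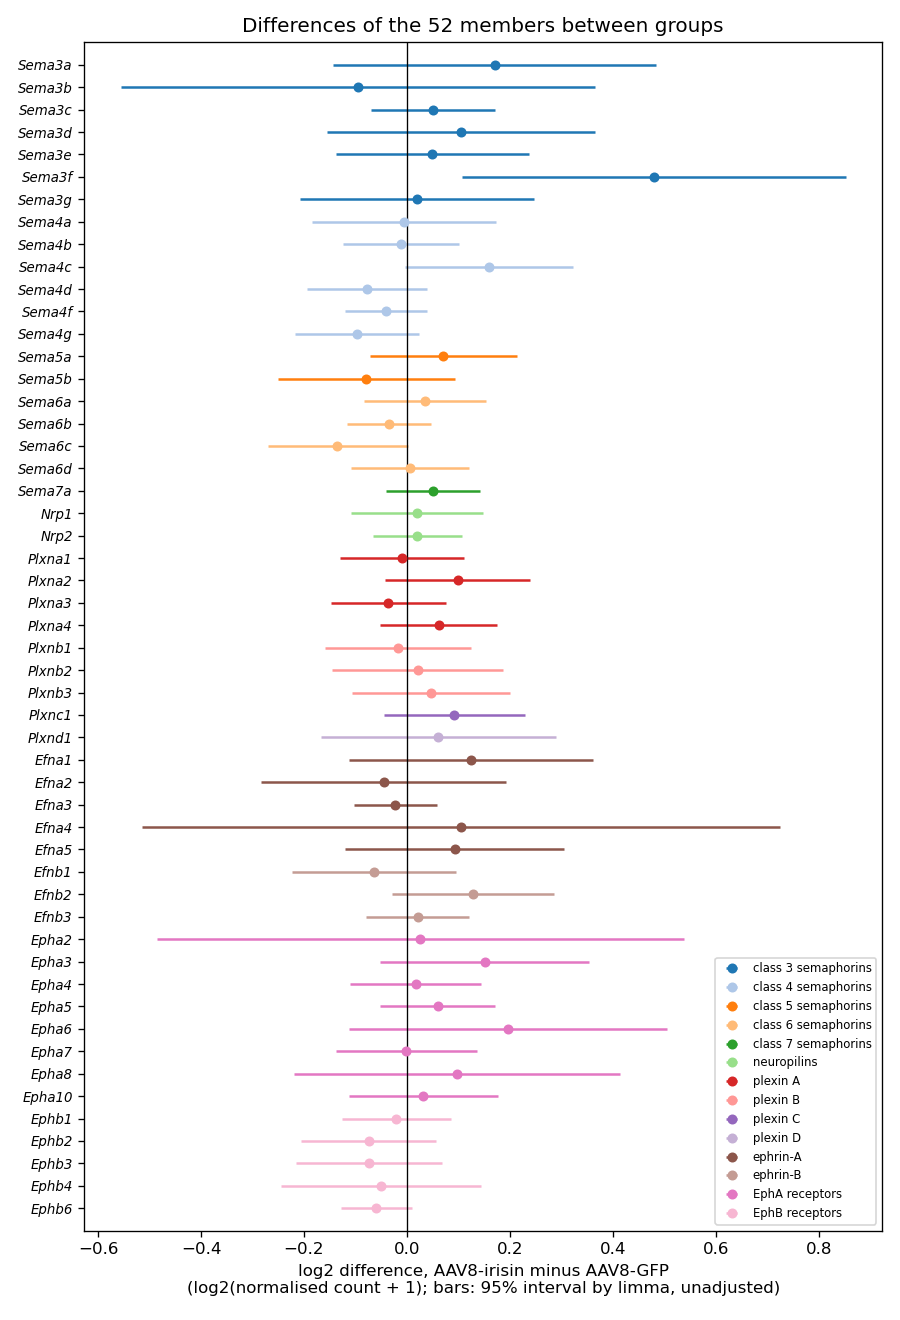
Log2 difference of each of the 52 members (points, irisin minus GFP mice on log2(normalised count + 1)), with the unadjusted 95% interval by limma as bars, coloured by subfamily. The interval of Sema3f, 0.11 to 0.85, is the only one that leaves out 0.

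The median standard error of a member's log2 difference was 0.066, against 0.075 over all tested genes. For 42 of the 52 members (80.8%) the unadjusted 95% interval stayed within 0.322 of 0, and this held for 65.2% of all tested genes. The widest intervals were those of Efna4 (−0.52 to 0.73), the receptor gene Epha2 (−0.49 to 0.54) and Sema3b (−0.56 to 0.37). The values bound the differences of Efna4, Epha2 and Sema3b no more closely than this.

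Levels differed far more between members than between groups. Levels were taken per kilobase of merged exons, to allow for gene length. All annotated exons of a gene count in this length, also those not used in hippocampus, so the order and shares of genes are approximate. Member means over the 10 libraries ran from 7.18 normalised counts per kilobase for Sema3a to 1832 for Epha4. The median was 182 against 133 over tested genes with a known length. Epha4, the receptor that binds ephrins of both classes, stood at 1825 ± 177 in GFP mice and 1840 ± 76.3 in irisin mice (SD, n = 5 each, as throughout, where a pair of values gives GFP mice first and irisin mice second, in normalised counts unless stated). Close behind came Efnb3, a transmembrane ephrin known as a midline barrier, with 1731 ± 129 and 1753 ± 40.4 per kilobase. The ranges of mean and SD of Epha4 and Efnb3 overlapped in each group, and the order of these genes was not tested. The membrane-anchored Sema7a (1485 ± 86.2 and 1536 ± 59.9) and the transmembrane Sema6b (1517 ± 78.5 and 1479 ± 38.8) followed and overlapped with each other, and a gap separated them from Efna3 (980 ± 21.6 and 965 ± 37.3) and Plxna1 (975 ± 85.9 and 966 ± 53.1), which again overlapped. The secreted Sema3a, Sema3b and Sema3f, with Efna4, Epha2 and Epha8, made up the bottom of the order.

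**Figure D2:**
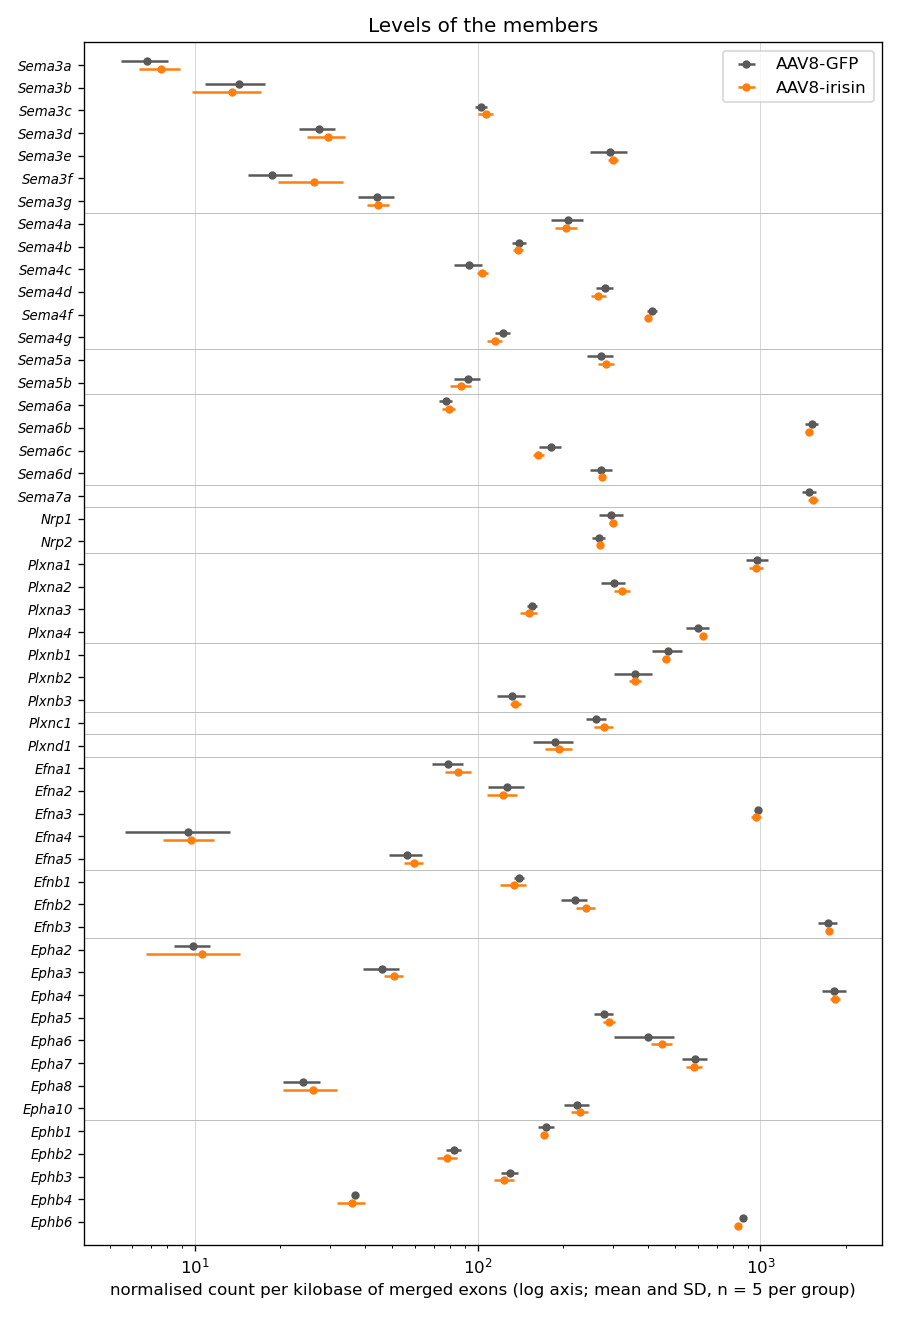
Normalised count per kilobase of merged exons (log axis) for each member, by subfamily, as mean and SD of the 5 GFP mice (grey) and the 5 irisin mice (orange). The paired points of most genes lie close to each other, those of Sema3f (18.7 and 26.5) less so, while genes of 1 subfamily range from 9.58 (Efna4) to 973 (Efna3).

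In several subfamilies a single gene held most of the level. Within the ephrin-A genes, Efna3 held 78.4 ± 1.57% of the summed level per kilobase in GFP mice and 77.7 ± 0.871% in irisin mice. Efnb3 held 82.7 ± 0.873% and 82.3 ± 1.08% of the ephrin-B level. Ephb6, an Eph receptor whose kinase domain is inactive, held 67.2 ± 0.722% and 67.0 ± 1.09% of the EphB level. The shares of Efna3, Efnb3 and Ephb6 differed between groups by less than their SD. Epha4 held 53.8 ± 1.74% and 52.9 ± 0.613% of the EphA level, and Sema6b held 74.0 ± 1.49% and 74.1 ± 0.672% of class 6. Sema3e, the class 3 semaphorin that can bind plexin D1 without a neuropilin, held 57.6 ± 3.36% and 56.9 ± 0.868% of class 3. Sema3f held 3.76 ± 1.02% and 5.01 ± 1.36% of class 3. The neuropilins were near balance, with Nrp1 at 52.5 ± 1.64% and 52.5 ± 0.943%.

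Among the secreted semaphorins, Sema3f (ENSMUSG00000034684.12, mm10 chromosome 9, 107681500 to 107710475, minus strand) is the ligand of neuropilin 2 that repels hippocampal axons and prunes spines. GFP mice 1 to 5 had 117, 89.3, 73.6, 94.9 and 111 normalised counts, and irisin mice 1 to 5 had 149, 95.6, 190, 118 and 134. Of the irisin mice, 4 lay above the highest GFP mouse, and mouse 2 lay among the GFP values, so the groups overlapped. The means were 97.1 ± 17.3 and 138 ± 35.6, a log2 difference of 0.48 (limma, standard error 0.17, unadjusted p = 0.0152, adjusted p = 0.942). Leaving out any single mouse kept the sign, with log2 differences from 0.35 to 0.60 and unadjusted p-values from 0.0027 to 0.047, and an adjusted p of 0.794 at the least. Irisin mouse 3, with the highest Sema3f, set the lower end, and mouse 2, with the lowest of its group, the upper end. Its neighbour Sema3b (chromosome 9, 107597674 to 107609229) went the other way in the mean, with 68.3 ± 16.5 and 64.3 ± 17.6, and no more than the spread.

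The receptor genes for Sema3f did not pass the test. Nrp2 had 2925, 3253, 3098, 3265 and 3322 in GFP mice 1 to 5 and 3174, 3162, 3159, 3344 and 3235 in irisin mice 1 to 5. GFP mouse 1 was the lowest of the 10, and irisin mouse 4 the highest. The Nrp2 means were 3173 ± 161 in GFP mice and 3215 ± 78.7 in irisin mice, a log2 difference of 0.020 with an interval of −0.065 to 0.11. Plxna3, the signalling subunit for Sema3f, had 1227 ± 48.4 and 1198 ± 82.9, a log2 difference of −0.036 (interval −0.15 to 0.076). Both intervals are narrow beside the Sema3f difference. Genes of some marker lists of other tissue also leaned in a shared direction. Their sums overlapped between groups, and no gene passed the adjusted threshold. The 9 tested of 13 choroid plexus genes all had a higher mean in irisin mice, and their list summed to 974 to 1234 in GFP mice and 1212 to 3115 in irisin mice. The 3115 was that of irisin mouse 4, and the other irisin mice had 1212 to 1393. All 7 ependymal genes also had a higher mean in irisin mice, with sums of 252 to 644 and 458 to 689. Irisin mouse 3, highest in Sema3f, also had the highest ependymal sum. GFP mouse 3 and irisin mouse 2, each lowest of its group in Sema3f, were also lowest of their groups in the ependymal sum (252 and 458). GFP mouse 4, with the highest ependymal sum of its group (644), had 94.9 of Sema3f. Irisin mouse 4, highest in choroid plexus, had 118 of Sema3f. No marker of either list was at 0 in all libraries, though Otx2, Kcnj13, Slc4a5 and Steap1 of choroid plexus were under the filter. All 8 microglia markers (sums of 13114 to 18014 and 12581 to 15931) and all 5 blood markers (1586 to 4502 and 1669 to 3211) had a lower mean in irisin mice. The part of these cells and tissues in the Sema3f values, or in those of any other member, was not tested.

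None of the other class 3 genes passed the test. Log2 differences were 0.17 for Sema3a, the classical collapsing ligand of neuropilin 1, 0.050 for Sema3c, 0.11 for Sema3d, 0.049 for Sema3e and 0.020 for Sema3g, a semaphorin of endothelium. Their unadjusted limma p-values ran from 0.264 (Sema3a) to 0.854 (Sema3g). Sema3e had 2726 ± 410 and 2794 ± 106 normalised counts, and its receptor gene Plxnd1 had 1363 ± 219 and 1413 ± 158. By mouse, Sema3e had 2038, 2761, 3135, 2818 and 2879 in GFP mice 1 to 5 and 2952, 2805, 2733, 2668 and 2811 in irisin mice 1 to 5, where GFP mouse 1 was the lowest and GFP mouse 3 the highest. Plxnd1 had 1608, 1365, 1367, 1014 and 1460 in GFP mice 1 to 5 and 1568, 1195, 1506, 1496 and 1300 in irisin mice 1 to 5, and the GFP mice spanned all irisin values. Nrp1 had 2413, 2980, 3047, 3098 and 3009 in GFP mice 1 to 5 and 2877, 3072, 2907, 2961 and 2870 in irisin mice 1 to 5. Apart from GFP mouse 1 all values lay close together, and the means were 2910 ± 281 and 2937 ± 83.4, a log2 difference of 0.019. The signs of Sema3e, Nrp1 and Nrp2 turned when GFP mouse 1 was left out, to −0.052, −0.047 and −0.0086, and that of Plxnd1 without GFP mouse 4, to −0.042.

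Among the transmembrane semaphorins no member passed either. Among class 4 genes, 5 of 6 had a lower mean in irisin mice, with a median log2 difference of −0.026. The count was 3 of 6 and the median −0.014 without irisin mouse 1, and with array quality weights the count was also 3 of 6. Without GFP mouse 2 the median was −0.042. The exception, Sema4c (chromosome 1, 36548639 to 36558349), a ligand of plexin B2, had 452, 422, 492, 367 and 405 normalised counts in GFP mice 1 to 5 and 448, 465, 473, 495 and 497 in irisin mice. All 5 irisin mice lay above the GFP median of 422, and 2 lay above its highest mouse. Its log2 difference was 0.16 (limma, standard error 0.076, unadjusted p = 0.0548, adjusted p = 0.942). An exon of Sema4c overlaps D430040D24Rik on the opposite strand, which leaves its value uncertain. Sema4d, the ligand of plexin B1 that oligodendrocytes carry, had 2167 ± 147 and 2053 ± 124, and Sema4f, the highest of class 4 per kilobase, 2186 ± 86.5 and 2124 ± 36.9. By mouse, Sema4f had 2300, 2081, 2228, 2195 and 2124 in GFP mice 1 to 5 and 2069, 2136, 2170, 2114 and 2131 in irisin mice 1 to 5, all irisin values lying below the GFP median. The unadjusted limma p-values of Sema4d, Sema4f and Sema4g were 0.179, 0.296 and 0.105, with log2 differences of −0.077, −0.041 and −0.097. Sema4a and Sema4b stood at −0.0052 and −0.011.

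Class 6, whose members bind plexins of the A group, held the lowest difference of all. Sema6c (chromosome 3, 95160457 to 95174024) had 1188, 932, 1106, 1124 and 1018 normalised counts in GFP mice 1 to 5 and 959, 986, 1018, 909 and 1004 in irisin mice. Irisin mouse 4 lay below every GFP mouse, the other irisin mice lay in the lower part of the GFP range, and GFP mouse 2 lay among them. Its log2 difference was −0.13 (limma, standard error 0.063, unadjusted p = 0.0516, adjusted p = 0.942), and −0.18 without GFP mouse 2. Sema6b had 6511, 5900, 6116, 5702 and 5870 in GFP mice 1 to 5 and 5617, 6019, 5945, 5917 and 5845 in irisin mice 1 to 5. GFP mouse 1 was the highest and irisin mouse 1 the lowest, with means of 6020 ± 311 and 5869 ± 154, and the differences of Sema6a and Sema6d were 0.035 and 0.0058. In class 5, semaphorins with thrombospondin repeats, Sema5a had 5085 ± 533 and 5326 ± 357 and Sema5b 654 ± 69.0 and 618 ± 51.0, opposite in sign and within their spread. By mouse, Sema5a had 4338, 5486, 4845, 5686 and 5069 in GFP mice 1 to 5 and 4834, 5369, 5161, 5794 and 5473 in irisin mice 1 to 5, with GFP mouse 1 again the lowest of the 10. Sema7a, which also signals through integrins, had 4655, 4900, 4698, 5371 and 4865 in GFP mice 1 to 5 and 4925, 5033, 4935, 5408 and 5036 in irisin mice 1 to 5. GFP mouse 4 and irisin mouse 4 stood above the rest of their groups. The Sema7a means were 4898 ± 284 and 5067 ± 197, a log2 difference of 0.050 (interval −0.041 to 0.14), and its receptor gene Plxnc1 had means of 2197 ± 178 and 2341 ± 185, a log2 difference of 0.092 (interval −0.045 to 0.23). By mouse, Plxnc1 had 1927, 2410, 2213, 2157 and 2277 in GFP mice 1 to 5 and 2367, 2505, 2511, 2072 and 2250 in irisin mice 1 to 5, where 2 irisin mice exceeded every GFP mouse. Without GFP mouse 1 the log2 difference of Plxnc1 was 0.046 and that of Sema7a 0.032. Without irisin mouse 4 that of Sema7a was 0.026, and without GFP mouse 4 it was 0.084.

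**Figure D3:**
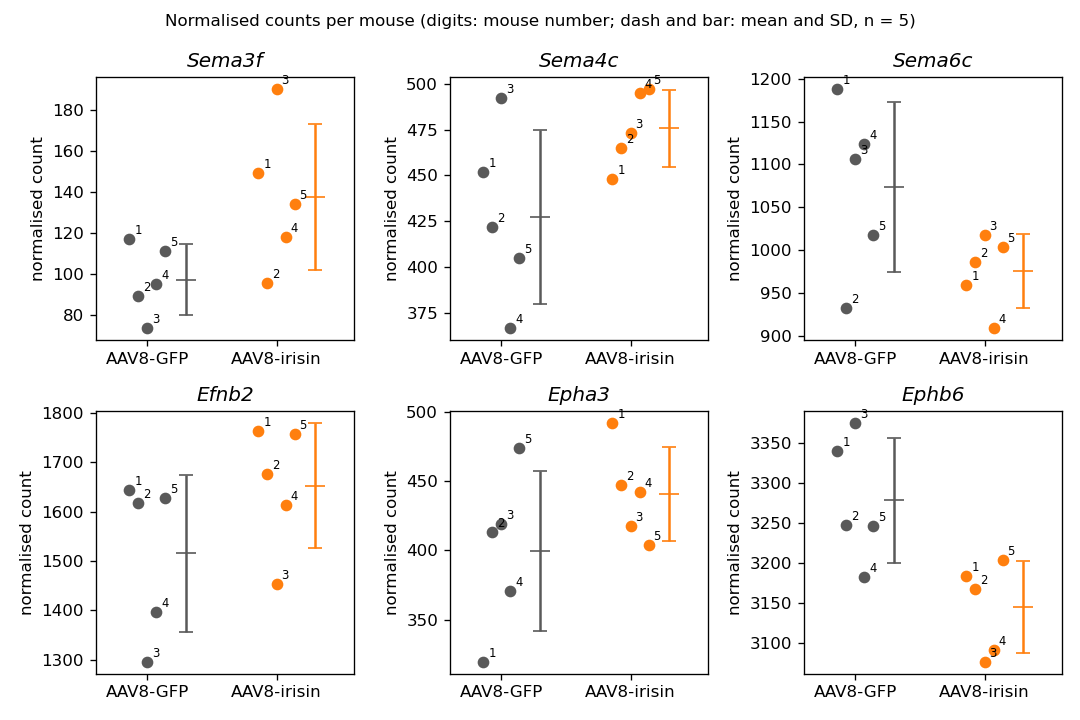
Normalised counts of 6 members in each mouse (points, numbered by mouse, with mean and SD beside them). The vertical axes do not start at 0. In every panel the values of both groups overlap, with 4 of 5 irisin mice above all GFP mice for Sema3f.

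The intervals of all 9 plexin genes stayed within 0.322 of 0. Plexins are the signalling receptors of semaphorins and act on small GTPases through a domain inside the cell. Plxna2 had 4341, 5545, 5186, 5487 and 5454 normalised counts in GFP mice 1 to 5 and 5710, 5698, 4950, 5500 and 5926 in irisin mice. Here 3 irisin mice exceeded every GFP mouse, and GFP mouse 1 stood below all others. Its log2 difference was 0.098 with an interval of −0.042 to 0.24, and 0.034 without GFP mouse 1. Plxna1 had 8825 ± 778 and 8747 ± 481, Plxna4, a partner of Nrp1, had 8492 ± 775 and 8834 ± 240, and Plxnb1 had 4518 ± 553 and 4438 ± 127. By mouse, Plxna1 had 7972, 8064, 9457, 9656 and 8978 in GFP mice 1 to 5 and 8749, 9544, 8539, 8264 and 8637 in irisin mice 1 to 5, all irisin values lying within the GFP range. Plxnb1 had 3829, 4272, 5328, 4689 and 4472 in GFP mice 1 to 5 and 4434, 4322, 4333, 4466 and 4636 in irisin mice 1 to 5, and the GFP mice again spanned all irisin values. For Plxnb3, a plexin known from oligodendrocytes, the values were 797, 790, 767, 948 and 976 in GFP mice 1 to 5 and 901, 827, 903, 924 and 845 in irisin mice 1 to 5. The irisin mice lay within the GFP range, and the Plxnb3 means were 856 ± 98.2 and 880 ± 41.3. The 10 oligodendrocyte markers all had a higher mean in irisin mice, with a median log2 difference of 0.11 and sums of 106290 to 142158 in GFP mice and 123326 to 147568 in irisin mice. Plxnb3 was lowest in GFP mouse 3, which also had the lowest oligodendrocyte sum.

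Among the ephrins, Efnb2 (chromosome 8, 8617434 to 8661242), a transmembrane ephrin of synapses and arteries, had the smallest p. GFP mice 1 to 5 had 1643, 1617, 1296, 1396 and 1627 normalised counts and irisin mice 1764, 1676, 1454, 1613 and 1757. GFP mice 3 and 4 were the lowest of the 10, and 3 irisin mice exceeded all GFP mice. Its log2 difference was 0.13 (limma, standard error 0.073, unadjusted p = 0.104, adjusted p = 0.942), and 0.073 without GFP mouse 3. Efnb3 had 5955, 5335, 4891, 5677 and 5693 in GFP mice 1 to 5 and 5523, 5516, 5763, 5654 and 5439 in irisin mice 1 to 5, with all irisin values inside the GFP range. Its means were 5510 ± 410 and 5579 ± 129, and its log2 difference of 0.021 turned to −0.021 without GFP mouse 3. Efna3 had 2478, 2379, 2363, 2360 and 2349 in GFP mice 1 to 5 and 2202, 2446, 2372, 2383 and 2343 in irisin mice 1 to 5, with irisin mouse 1 the lowest, and means of 2386 ± 52.6 and 2349 ± 90.8. Efna1, the ephrin-A gene of smallest p, had 168, 142, 117, 144 and 149 in GFP mice 1 to 5 and 154, 130, 158, 167 and 173 in irisin mice 1 to 5, and its groups overlapped widely. Efna1, Efna3 and Efna4 lie side by side on chromosome 3 (89271733 to 89338028), and their log2 differences were 0.12, −0.023 and 0.11 with levels of 82.0, 973 and 9.58 per kilobase. Efna5, a ligand of EphA receptors in hippocampal maps, had 226 ± 30.2 and 240 ± 18.0.

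EphA and EphB receptors leaned in opposite directions by small amounts. Of 8 EphA genes 7 had a higher mean in irisin mice, with a median log2 difference of 0.046, and all 5 EphB genes had a lower one, with a median of −0.060. None passed, and the difference between both classes was not tested. The EphA count was 4 of 8 without irisin mouse 4, and 8 of 8 with libraries rescaled to equal totals or quantile normalised. One EphB gene turned above 0 without GFP mouse 4 or mouse 5 (Ephb1) or irisin mouse 1 (Ephb4). Epha3 had 320, 413, 419, 371 and 474 in GFP mice and 492, 447, 418, 442 and 404 in irisin mice, a log2 difference of 0.15 (limma, standard error 0.095, unadjusted p = 0.135). Without GFP mouse 1, the lowest of the 10, the log2 difference of Epha3 was 0.074. Epha4 had 12208, 15626, 15556, 15290 and 14793 in GFP mice 1 to 5 and 14285, 15353, 14450, 15609 and 14395 in irisin mice 1 to 5, with means of 14695 ± 1428 and 14818 ± 614. GFP mouse 1 lay below all others for Epha4. Epha5, which is abundant in forebrain, had 4676 ± 368 and 4865 ± 232, and Epha7 had 5795 ± 594 and 5777 ± 375.

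Ephb6 (chromosome 6, 41605482 to 41620509) was the steadiest member, with a within-group SD of 0.031 on the log2 scale against a median of 0.12 over the members. GFP mice 1 to 5 had 3340, 3248, 3375, 3183 and 3246 normalised counts and irisin mice 3184, 3168, 3077, 3092 and 3204. All irisin mice lay below the GFP median, and 3 lay below every GFP mouse. The log2 difference was −0.060 (limma, standard error 0.032, unadjusted p = 0.0832, adjusted p = 0.942), with an interval of −0.13 to 0.0089. Ephb2, the receptor that clusters NMDA receptors at synapses and is linked to amyloid, had 1038 ± 60.6 and 986 ± 78.4, a log2 difference of −0.075 (interval −0.21 to 0.057). Ephb1, Ephb3 and Ephb4 stood at −0.021, −0.074 and −0.051. For Ephb4, 4 irisin mice lay below every GFP mouse and irisin mouse 4 above them all. Exons of Ephb1, Ephb4, Epha6, Epha10, Efna3, Efna4, Plxna1, Plxna4 and Plxnb1 overlap a gene on the opposite strand, and those of Nrp1, Plxnc1 and Sema4a one on the same strand, so their values are uncertain to that extent.

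Within the AAV8-GFP group, mouse 1 stood apart. Of the 52 members, 16 had their lowest value of the 10 libraries there and 12 their highest, against at most 10 and 7 in any other library. These counts were not taken over all tested genes. The SD of the deviations from the mean of the 10 libraries was largest there for the members (0.223 against 0.109 to 0.195 elsewhere). It was also largest there over all tested genes (0.272 against 0.231 to 0.26). Epha6, an EphA receptor of neurons, was singled out after its values were seen: it had 1287 in GFP mouse 1 and 2434, 2068, 2571 and 2203 in mice 2 to 5, with 2346, 2595, 2053, 2476 and 2340 in irisin mice. Its log2 difference of 0.20 became 0.027 without that mouse. Plxnb2, also chosen after seeing the values, went the other way, with 3518 in GFP mouse 1, 2525, 2668, 2575 and 2559 in mice 2 to 5, and 2565, 2905, 2843, 2795 and 2835 in irisin mice. Its log2 difference was 0.021 with all mice and 0.11 without mouse 1 (limma, unadjusted p = 0.0149, adjusted p = 0.982). Epha4 and Nrp1 were low there too.

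In GFP mouse 1, a member's deviation from its mean over the 10 libraries and its log2 exon length had a Pearson r of −0.513 across the 52 members, and −0.203 across 17330 tested genes with a length. Genes are not independent replicates, and the members share this library. In the other 9 libraries r across the members lay between −0.129 and 0.445, with the high end in GFP mouse 4. The 16 members lowest in GFP mouse 1 had a median exon length of 9438 bases, the 12 highest there 5790 bases, and all members 7041 bases. Epha6, the lowest of all in that library, has 5.29 kilobases of exons, shorter than the median. The part of exon length in these values was not tested. At an unadjusted p under 0.05 without GFP mouse 1 there were 3 members, Sema3f, Sema4c and Plxnb2, all higher in irisin mice, and 0 passed the adjusted threshold. In that fit 4.85% of all tested genes had such a p.

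**Figure D4:**
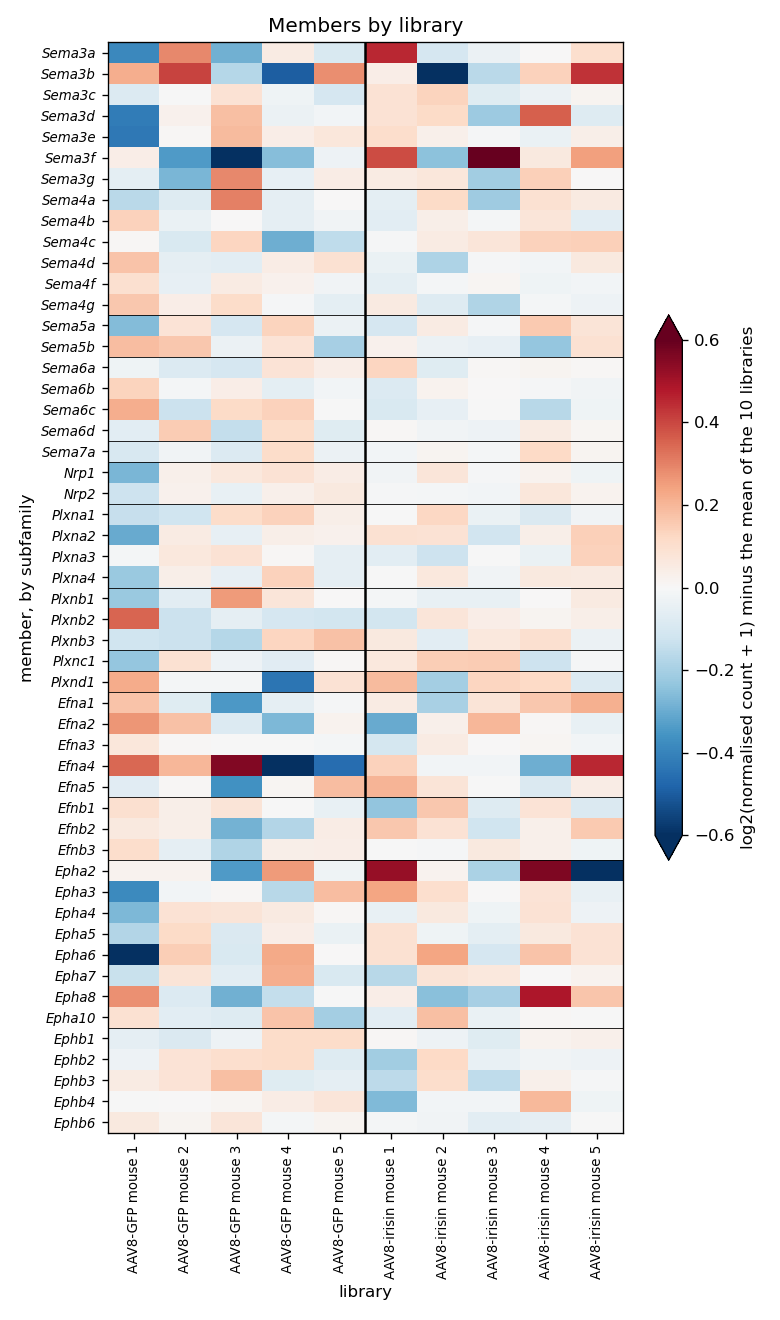
Deviation of each member (rows, by subfamily) from its mean over the 10 libraries (columns), on log2(normalised count + 1), with red above and blue below the mean. GFP mouse 1 shows blue rows for Epha3 to Epha6, Nrp1, Plxna2 and Sema3e and a red row for Plxnb2, and no block of rows separates the groups.

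**Figure D5:**
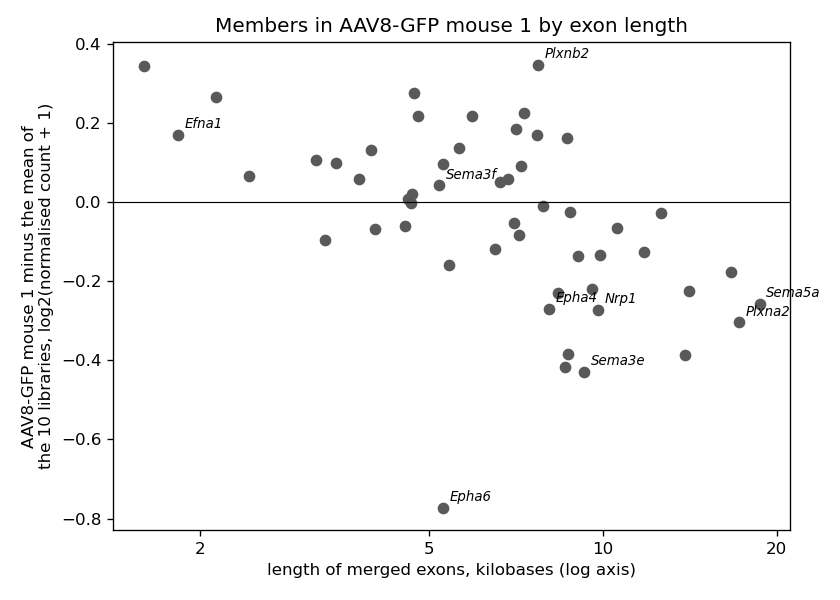
Deviation of GFP mouse 1 from the mean of the 10 libraries on log2(normalised count + 1), against the length of merged exons in kilobases (log axis), 1 point per member. Members over 10 kilobases lie below 0, and Epha6 is the lowest point at −0.77.

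Epha6 and Plxnb2 had the lowest and the highest deviation in that library, so the 250 bases before their starts are shown, from RefSeq on GRCm38.p6, the assembly of mm10, 5′ to 3′ on the gene's strand, with GC boxes (GGGCGG on either strand, CCGCCC when read from the other) in capitals.
Epha6, chr16:60605532-60605781, minus strand: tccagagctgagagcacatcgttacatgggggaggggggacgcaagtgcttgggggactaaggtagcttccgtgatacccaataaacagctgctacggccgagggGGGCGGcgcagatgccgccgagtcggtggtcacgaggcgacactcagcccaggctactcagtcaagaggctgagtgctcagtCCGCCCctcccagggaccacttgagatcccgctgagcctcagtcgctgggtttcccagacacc
Plxnb2, chr15:89180789-89181038, minus strand: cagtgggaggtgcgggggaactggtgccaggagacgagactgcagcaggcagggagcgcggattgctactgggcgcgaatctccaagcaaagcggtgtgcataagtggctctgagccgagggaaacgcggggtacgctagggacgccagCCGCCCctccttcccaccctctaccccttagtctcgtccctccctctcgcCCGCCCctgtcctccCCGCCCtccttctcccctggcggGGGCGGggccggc
Epha6 has 2 GC boxes and 15 CpG dinucleotides in this window, and Plxnb2 has 4 and 20. Neither window holds the letters TATAAA. Promoter windows were found for 46 of the 52 members, the missing ones being Efnb3, Plxna1, Plxna4, Sema3b, Sema3f and Sema6a. Of these 46, 76.1% hold a GC box, against 32.9% of 27025 mouse promoters of the same length, and the median number of CpG dinucleotides is 16 against 6. The letters TATAAA on either strand were found in 1 member window (Efnb2) and in 13.0% of all. Members had to pass a filter on level in hippocampus, which was not asked of the 27025 promoters. The sets are therefore unlike, and these shares do not show a trait of the guidance genes. A match describes letters in a window and says nothing of a factor bound there.

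Genes that act with these receptors inside and at the cell surface gave few unadjusted calls, as the members did. Of 30 tested effectors of Eph and ephrin signalling, 15 had a higher and 15 a lower mean in irisin mice (median log2 difference 0.0019), and 2 had an unadjusted p under 0.05. Src, the kinase recruited to ephrin-B tails and Eph receptors, had 5718, 5608, 5396, 5415 and 5626 in GFP mice and 5098, 5216, 5182, 5482 and 5326 in irisin mice. Thus 4 irisin mice lay below every GFP mouse, for a log2 difference of −0.078 (limma, standard error 0.032, unadjusted p = 0.0287, adjusted p = 0.942). Rgs3, which links ephrin-B to G protein signalling, had 615, 541, 598, 650 and 638 in GFP mice 1 to 5 and 622, 676, 667, 668 and 721 in irisin mice 1 to 5. Here 4 irisin mice lay above every GFP mouse, with means of 608 ± 42.8 and 671 ± 34.9, a log2 difference of 0.14 (limma, unadjusted p = 0.036, adjusted p = 0.942). Of 39 tested effectors of semaphorin and plexin signalling, 24 had a higher and 15 a lower mean (median 0.014), and 1 had an unadjusted p under 0.05. That gene, Mical2, encodes a flavoenzyme that takes actin filaments apart by oxidation, and had 16783, 16638, 17693, 17072 and 16349 in GFP mice 1 to 5 and 16306, 16411, 16431, 15547 and 15102 in irisin mice 1 to 5. For Mical2, 3 irisin mice lay below every GFP mouse, with means of 16907 ± 511 and 15960 ± 603, a log2 difference of −0.084 (limma, unadjusted p = 0.0246, adjusted p = 0.942). Together 3 of 68 distinct effectors had an unadjusted p under 0.05, and 4.49% of all tested genes did.

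A separate guidance system, of Slit, Robo, netrin and related genes, gave a like count, with 12 higher and 10 lower of 22 tested, a median log2 difference of 0.0069 and 1 gene at an unadjusted p under 0.05. That gene was Robo3, a receptor that controls midline crossing, with 842 ± 93.2 and 742 ± 40.0 normalised counts and a log2 difference of −0.18 (limma, unadjusted p = 0.0266, adjusted p = 0.942).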

How the data were processed

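RNA enriched with oligo(dT) from 10 hippocampi was sequenced, 1 library per mouse, with a kit that, as named in the labels' protocols, does not mark strand. The submitters' processing notes give bcl2fastq 2.17, DESeq2 with no version stated, and mm10. The aligner, counter and annotation behind the values are not given in the sources used here. Values are a signal per gene, read counts scaled between libraries by the authors with DESeq2 per the name of the deposited table, and this scaling assumes that most genes do not differ. Reads of overlapping genes cannot be told apart, which touches 13 members. The most frequent value under 2 in a library, 0.88 to 1.17, was taken as 1 read, which gives an estimated depth of 30800000 to 41600000 reads. Of values under 10, 56.9% to 75.3% were whole multiples of it within 0.1 reads, so whole reads were not recovered and no count test was run.

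Titles name separate mice and give the groups. The 17556 genes reaching 10 in 5 or more libraries were fitted on log2(value + 1), which understates changes of low genes, with limma 3.58.1 in R 4.3.3 (trend, two-sided, Benjamini-Hochberg over these genes, threshold 0.05), after the method was tested on simulated data. Intervals are unadjusted. Exon lengths and positions are from GENCODE M21 on mm10, matched by symbol. Members and lists were chosen with earlier results of these data known. Values per mouse are for members with an unadjusted p under 0.05 or groups apart and, per subfamily, the members of smallest p and of highest level per kilobase, 23 in all, with Epha6 and Plxnb2 added after their values were seen. Effectors were named at an unadjusted p under 0.05. Of 15 marker lists, 5 are given beside results. For the others, median log2 differences were 0.013 (dentate), 0.026 (CA1), −0.043 (CA2 and CA3), −0.016 (oligodendrocyte precursors), −0.043 (astrocytes), −0.042 (endothelial and mural cells), 0.048 (meninges), 0.044 (striatum), −0.0039 (thalamus) and 0.032 (neocortex and subiculum). Alternatives covered the pseudocount, filter, scaling, variance model, array weights, a replicate block and each mouse left out.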

Additional observations from a re-analysis of the deposited data

Results flagged for a closer look

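Screening the 52 members in both groups (104 groups of 5 mice) for a mouse far from the others of its group gave 6 cases. By chance about 1 in 20 independent groups would be flagged. The members share the same libraries, so the cases are not independent and this rate cannot judge their number. In 4 of the 6 cases the mouse was AAV8-GFP mouse 1. It was the lowest of its group for Epha4 (12208, the next at 14793) and Nrp1 (2413, the next at 2980), and the highest for Plxnb2 (3518, the next at 2668) and Efna3 (2478, the next at 2379). AAV8-irisin mouse 2 was the highest of its group for the receptor gene Epha10 (1848, the next at 1638), and AAV8-irisin mouse 4 for Sema7a (5408, the next at 5036). All values are normalised counts.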

How the results depend on the processing

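Over 21 alternatives no member passed the adjusted threshold, and the smallest adjusted p of a named member was 0.794. Of 525 values of the 25 named members, 501 kept their sign and 24 turned, in 11 genes whose log2 differences with all mice were no larger than 0.071 in size. Part of the 501 could not turn. The filters, the fit without trend, the replicate block and median-ratio rescaling left the log2 differences of the named members as they were. Without a filter on low values 1 gene of the whole table was called, the predicted gene Gm49383 (adjusted p = 0.0108), and 2 members (Sema3f and Sema6c) had an unadjusted p under 0.05, beside 4.73% of all genes tested there. That count was 1 with all mice, 3 with array quality weights (Sema3f, Efnb2 and Sema4c, beside 5.11% of all tested genes), and ran from 1 to 4 with single mice left out, beside 3.39% to 6.24% of all tested genes. The 4 came without irisin mouse 3 (Sema3f, Efnb2, Plxna2 and Sema6c, beside 6.03%), and Sema3f was among them in all 10 such fits. Groups did not overlap in 0 to 2 members with single mice left out (Sema6c without GFP mouse 2, Ephb6 and Sema7a without GFP mouse 4, Sema3f without irisin mouse 2 and Ephb4 without irisin mouse 4), beside 1.29% to 2.14% of all tested genes. The count of the 68 effectors with an unadjusted p under 0.05 was 3 with all mice and 1 without the trend, beside 4.49% and 4.64% of all tested genes. It ran from 1 to 4 with single mice left out, beside 3.39% to 6.24%, with 1 without irisin mouse 2 or 4. With array quality weights the log2 differences of Epha4, Nrp1, Nrp2 and Sema3e turned to −0.019, −0.022, −0.0021 and −0.0055. With AAV8-GFP mouse 1 and AAV8-irisin mouse 4 both left out, chosen after seeing the data, 3 members had an unadjusted p under 0.05 (Sema3f, Plxnb2 and Epha4, the last lower) beside 4.23% of all tested genes, groups did not overlap in 1 (Ephb4) beside 2.63%, the median over the members was −0.0123, and Epha4, Nrp1, Nrp2, Sema3e and Sema5a stood at −0.067, −0.050, −0.023, −0.036 and −0.016. With single mice left out, the log2 difference ran from −0.048 to 0.041 for Epha4, −0.047 to 0.043 for Nrp1, −0.0086 to 0.037 for Nrp2, −0.052 to 0.10 for Sema3e, −0.0096 to 0.11 for Plxnb2, −0.021 to 0.050 for Efnb3, −0.046 to 0.024 for Plxna1, −0.075 to 0.044 for Plxnb1, −0.042 to 0.13 for Plxnd1 and −0.038 to 0.00042 for Efna3. Ranges that kept their sign were 0.054 to 0.19 for Efna1, 0.015 to 0.11 for Sema5a, 0.0094 to 0.096 for Plxnb3, −0.058 to −0.022 for Sema4f and −0.055 to −0.0070 for Sema6b. The cause of these moves was not tested. The titles do not state that mouse numbers pair the groups. Deviations of same-numbered mice had correlations of −0.089 to 0.03, which cannot settle whether mice were paired. With the replicate block 2 members (Sema3f and Efnb2) had an unadjusted p under 0.05, beside 4.91% of all tested genes, and 0 were called. Precision was lowest for Efna4, Epha2 and Sema3b.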
